A study of Mus musculus with 59 samples.

Results

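A set of 40 genes of mouse brown adipose tissue (BAT) is described here, whose RNA differed from that of hypothyroid mice 6 h and 12 h after thyroid hormone (TH) and was back near the starting level at 24 h. The genes were chosen by a rule on group means in the 20 wild-type (WT) mice of a TH time course. Levels were CPM, a gene's count relative to the total of its library without the genes of the mitochondrial genome, on the log2(CPM + 0.5) scale. A gene was a member if its difference from the PTU mice had the same sign and a size of 0.7 or more at 6 h and at 12 h, and a size below 0.35 at 24 h. Of 55341 genes listed, 9212 had a mean raw count of 50 or more, and 40 of these were members, 30 lower and 10 higher than in the PTU mice. The rule left out 10 clock genes by name, Arntl, Clock, Npas2, Per1, Per2, Per3, Nr1d1, Nr1d2, Dbp and Ciart, of which Arntl, Nr1d2 and Per3 would have met it. Since the values at 6 h, 12 h and 24 h chose the members, they are given as a description and without a test.

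Thyroid hormone acts in the nucleus through receptors that bind DNA and change the transcription of nearby genes, and brown fat depends on it for heat production. Hormone responses can be transient, since induced regulators and feedback act on later transcription. Brown fat also has a circadian clock, in which the Arntl and Clock proteins activate E-box genes such as Dbp and those of the Per and Nr1d families, and Per and Nr1d proteins in turn hold this loop back, so that many transcripts rise and fall within a day.

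All mice were male C57BL/6J animals of 8 to 12 weeks, and each gave 1 BAT library. In the TH experiment every mouse was fed propylthiouracil (PTU), which blocks TH synthesis. WT mice without TH (4 mice, the PTU group) were compared with mice taken 3 h, 6 h, 12 h or 24 h after a single injection of T3 and T4 (4 mice each), and BATKO mice were taken without TH (5 mice) or 24 h after TH (5 mice). In the temperature experiment control (CTRL) and BATKO mice spent 24 h at 4 °C (3 CTRL and 4 BATKO) or at 30 °C (4 CTRL and 5 BATKO). In the diet experiment they received a high-fat diet (HFD, 4 CTRL and 3 BATKO) or chow (4 CTRL and 2 BATKO) for 3.5 days. What was changed in the genome of BATKO mice, and by which driver, is not given in the sources used here, and the temperature and diet mice are not described as PTU-fed. Each time after TH had its own mice, there was 1 PTU group, and no clock time is given. Hours after TH and time of day therefore cannot be told apart in this design, and in bulk tissue fewer cells of a type and less RNA per cell cannot be told apart either.

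Total counts were 7805938 to 14615534 per WT mouse of the TH experiment, and 40.5% to 55.7% of them came from the mitochondrial genome. All 11 brown adipocyte markers, among them Ucp1 and Cidea, were detected in each group, with a summed level of 31900 to 35000 CPM in the PTU mice. The sum was 39300 to 44900 CPM at 6 h, 31600 to 47200 CPM at 12 h and 28200 to 42800 CPM at 24 h. Their median difference from PTU on the log2(CPM + 0.5) scale was 0.02, -0.32 and -0.83 at these times. For the 3 of 5 white adipocyte markers past the count filter it was 0.03, -0.57 and -0.69. Endothelial markers (7 of 7 detected) summed to 696 to 737 CPM in the PTU mice, 587 to 747 CPM at 6 h and 555 to 729 CPM at 12 h. Muscle markers (12 of 12 detected) were the least even, with 49.3 to 3910 CPM in the WT mice of the time course. Their median difference from PTU was 1.17 at 6 h, -2.42 at 12 h and 1.26 at 24 h. At 30 °C, 3 libraries stood apart, with 11600 CPM in CTRL mouse 21 and 18900 and 19300 CPM in BATKO mice 13 and 17. Lymphocyte markers summed to 5.99 CPM at most in the WT mice. No member is on any of these marker lists.

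Since the hours after TH can coincide with hours of the clock, the stretches upstream of members were searched for the E-box, the 6 letters CACGTG that Arntl and Clock bind and that read the same on both strands. RefSeq windows of 250 bases before and 50 after a start in GRCm38.p6 were at hand for 28 of the 40 members. The E-box was found for 2 of 22 lower members (9.09%), Actg1 and Rdh11, and for 1 of 6 higher members (16.7%), Adtrp, against 12.3% of the 6925 genes that passed the count filter and had a window. The part upstream of annotated exons is printed below for Adtrp and Actg1, the member of each direction with an E-box and the largest change, with the E-box in capitals.
Adtrp, chr13:41847685-41847866, minus strand, E-box first base at -106 from the RefSeq start: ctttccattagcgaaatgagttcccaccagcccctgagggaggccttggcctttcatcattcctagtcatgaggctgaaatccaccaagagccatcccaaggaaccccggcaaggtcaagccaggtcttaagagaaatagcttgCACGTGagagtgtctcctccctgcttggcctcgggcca
Actg1, chr11:120348543-120348745, minus strand, E-box first base at -141 from the RefSeq start: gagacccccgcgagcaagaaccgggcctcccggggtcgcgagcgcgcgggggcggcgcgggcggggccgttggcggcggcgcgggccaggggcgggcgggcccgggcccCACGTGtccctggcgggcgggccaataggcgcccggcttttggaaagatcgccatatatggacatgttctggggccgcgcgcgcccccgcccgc
Adtrp has a further RefSeq start, and the Actg1 stretch also overlaps an exon of 0610009L18Rik on the opposite strand.

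Other short elements were looked for in the same windows and on both strands. The D-box (TTATGTAA or TTACGTAA), which Dbp binds, was in no member window and in 0.838% of the filtered genes. The cyclic AMP element (TGACGTCA) was in no member window and in 3.83% of the filtered genes. Searched by the same scheme, the ROR element (0.347% of filtered genes), the glucocorticoid element (0.347%), the heat shock element (0.549%) and the DR4 element of thyroid hormone receptors (0.0%) were in no member window. The DR4 element was searched as an exact sequence and was in 0 of the 6925 filtered genes with a window. With elements this scarce over all genes, their absence from the windows of 28 members says nothing about the members. These matches describe letters in 300 bases and not bound sites.

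The 30 lower members held several groups by known role. Thbs1 (thrombospondin-1, a matrix glycoprotein that restrains vessel growth), Fst (follistatin, a secreted antagonist of activins) and Col5a3 (a collagen V chain) are secreted, Cldn5 (a tight junction protein) and Apold1 are known from endothelial cells, and Sh3pxd2b is an adaptor of podosomes. Actg1 (cytoplasmic gamma-actin), Ralgps1 (an exchange factor of small GTPases), Ptpn14 (a tyrosine phosphatase), Ntrk3 (the neurotrophin-3 receptor), Grk5 (a kinase of G protein-coupled receptors), Tbc1d4 (a Rab regulator of glucose transporter traffic) and Tanc2 (a scaffold protein) belong to the cytoskeleton and to signalling. Slc5a3 (a myo-inositol transporter), Slc2a5 (a fructose transporter), Glrx (glutaredoxin), Nqo1 (a quinone reductase), Marc1 (a mitochondrial reductase), Rdh11 (a retinal reductase), Cmpk2 (a nucleotide kinase) and S100a10 (a partner of annexin A2) complete the metabolic and binding proteins. Med12l (a Mediator subunit), Ncoa7 (a nuclear receptor coactivator), Chd4 (a chromatin remodeller), Naf1 (a factor of small nucleolar RNA-protein assembly) and Fbxo22 (a ubiquitin ligase subunit) act mostly in the nucleus. Prune2, the antisense RNA Gm15551 and the pseudogene Gm5182 are the others.

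Among the 10 higher members, Adtrp is a membrane hydrolase of fatty acid esters of hydroxy fatty acids, St3gal5 makes the ganglioside GM3, Dhrs11 is a short-chain dehydrogenase, and Pcsk4 is a proprotein convertase. Slc7a8 carries neutral amino acids and also iodothyronines across the plasma membrane, and Slc35a4 belongs to the nucleotide sugar transporters. Zfp961 is a zinc finger protein, Cfap54 a protein of cilia, Mir22hg the host RNA of miR-22, and Gm6157 a pseudogene. By the annotation, 93.3% of the lower and 80.0% of the higher members are protein-coding, against 92.5% of the filtered genes. The members lie on many chromosomes, with the most on chromosome 11 (5 genes) and chromosome 6 (4 genes).

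The median difference of the lower members from the PTU mice was -0.52 at 3 h on the log2(CPM + 0.5) scale, and then -1.04 (6 h), -0.98 (12 h) and -0.16 (24 h). For the higher members it was 0.50, 0.96, 0.84 and 0.20 at the same times, and for all 9212 filtered genes 0.02, 0.04, -0.05 and 0.01. The change was larger at 12 h than at 6 h for 18 of the 30 lower members and for 2 of the 10 higher members. At 3 h, 28 of 30 lower and 10 of 10 higher members had the sign that they had later. Of the other genes past the size limit at 6 h and 12 h, 98.2% of the lower and 98.2% of the higher ones did, and all these differences are taken from the same PTU mice. Outside the 10 clock genes, 649 genes passed the size limit at 6 h and 12 h (256 lower and 393 higher), and the 40 members are 6.16% of them. This share is set by the 24 h limit of the rule, which also leaves out genes that returned most of the way. How common a transient course is was not tested.

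**Figure D1:**
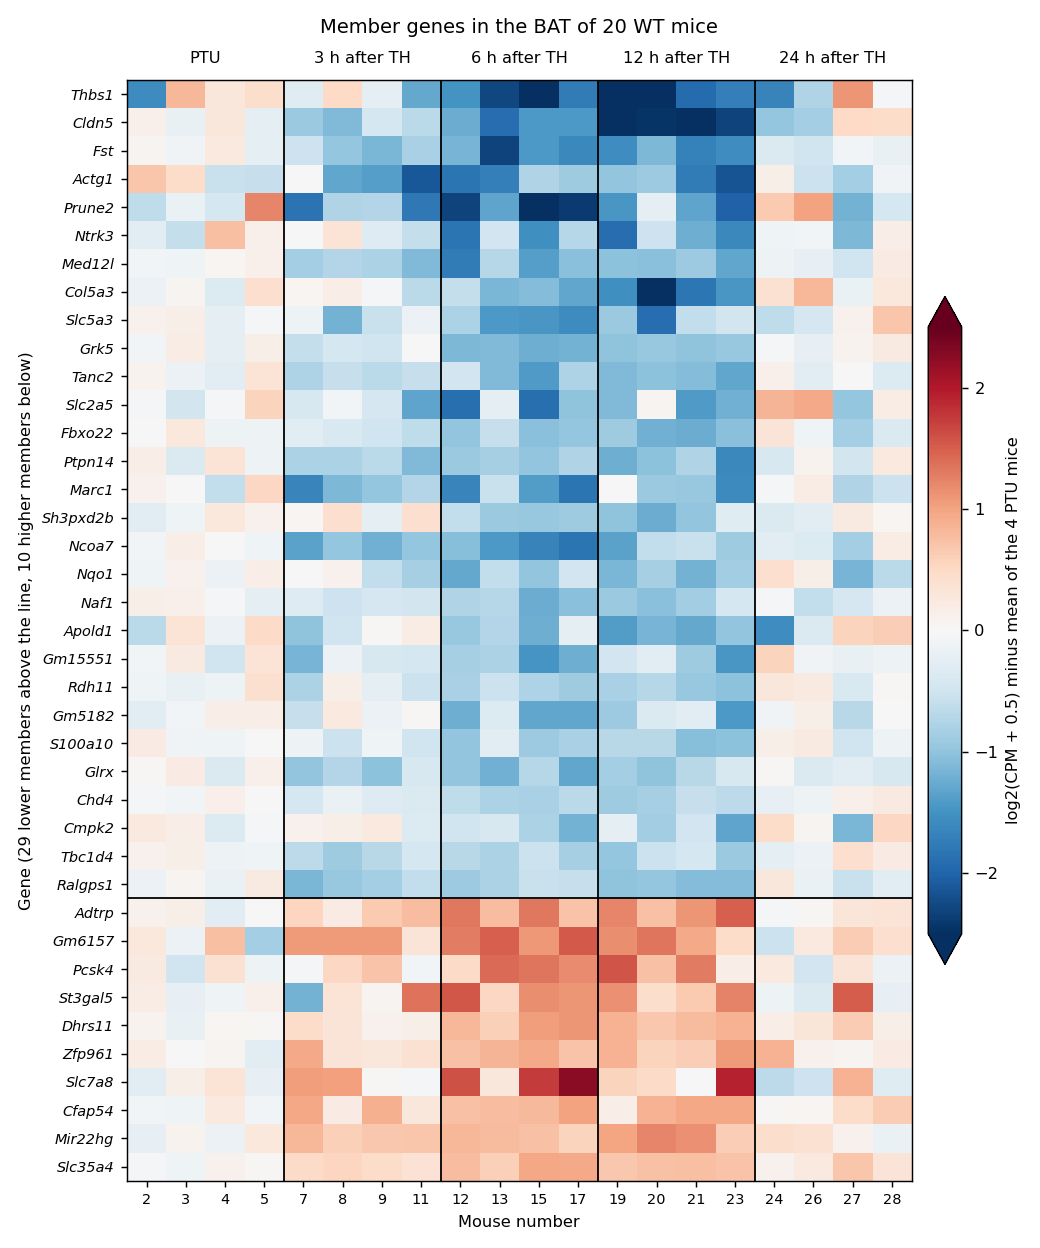
Each row is 1 of 39 members and each column 1 of the 20 WT mice, ordered by hours after TH. Colour is log2(CPM + 0.5) minus the mean of the PTU mice. The 6 h and 12 h columns carry the strongest colours in both blocks (medians -1.04 and -0.98 for lower members), and the 24 h columns are pale except in single mice.

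Among the secreted and vascular members, Thbs1 (chr2:118111876-118127133, plus strand, ENSMUSG00000040152.8) differed from PTU by -2.07 at 6 h and by -2.42 at 12 h. Its level in the single mice was 8.01, 44.5, 30.0 and 33.7 CPM with PTU, 8.48, 4.68, 3.13 and 7.01 CPM at 6 h, 2.55, 2.69, 6.09 and 7.15 CPM at 12 h, and 7.42, 14.4, 53.5 and 24.2 CPM at 24 h. PTU mouse 2 was within the range of the 6 h mice, so these groups overlapped, while all 12 h mice were below all PTU mice. Cldn5 (chr16:18776847-18778262, plus strand, ENSMUSG00000041378.2) was at 30.0, 23.8, 33.2 and 23.2 CPM with PTU, at 11.2, 6.92, 9.80 and 9.72 CPM at 6 h, and at 3.51, 4.56, 4.06 and 5.11 CPM at 12 h. The 3 h mice, at 14.0, 12.3, 19.8 and 17.0 CPM, were already below every PTU mouse. At 24 h mice 24 and 26 were still low (13.7 and 14.8 CPM) and mice 27 and 28 were above every PTU mouse (38.7 and 37.5 CPM), so that the small mean difference of -0.22 joined 2 unlike pairs.

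Fst (chr13:114452290-114458951, minus strand, ENSMUSG00000021765.9) was at 16.8, 14.9, 18.9 and 13.5 CPM with PTU, at 6.88, 2.81, 5.58 and 4.86 CPM at 6 h, and at 5.10, 7.05, 4.57 and 5.11 CPM at 12 h, with no overlap. It was back at 12.3, 11.2, 15.2 and 14.0 CPM at 24 h. Col5a3 (chr9:20770050-20815067, minus strand) differed from PTU by -1.03 at 6 h and by -1.89 at 12 h, where its highest mouse had 6.38 CPM against 14.5 CPM in the lowest PTU mouse. Endothelial markers were 7 of 7 detected at every time, and their summed level was up to 737 CPM with PTU and at least 555 CPM at 12 h. The part of cell composition in the Cldn5 values was not tested.

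Among the cytoskeletal and signalling members, Actg1 (chr11:120345690-120348542, minus strand) was at 28.7, 24.3, 11.8 and 11.6 CPM with PTU, at 4.64, 5.05, 10.2 and 9.30 CPM at 6 h, and at 8.60, 9.12, 4.91 and 3.57 CPM at 12 h. Its PTU mice fell into a high and a low pair, and both treated groups lay below both pairs. Ntrk3 was the most abundant of the leading lower members, with 143 to 365 CPM with PTU, 60.8 to 156 CPM at 6 h, 57.8 to 153 CPM at 12 h and 100 to 245 CPM at 24 h. Its groups overlapped at 6 h and at 12 h although the means differed from PTU by -1.14 and -1.31. Grk5 had similar differences (-1.16 and -0.97) with little spread, at 46.8 to 63.0 CPM with PTU, 23.6 to 25.6 CPM at 6 h, 27.4 to 28.6 CPM at 12 h, and 47.9 to 64.6 CPM at 24 h.

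Med12l (chr3:59005825-59318682, plus strand) was at 24.5, 23.8, 26.9 and 28.2 CPM with PTU, at 7.36, 15.5, 9.67 and 12.2 CPM at 6 h, at 12.4, 12.2, 13.5 and 10.2 CPM at 12 h, and at 23.4, 22.3, 18.1 and 29.6 CPM at 24 h. The myo-inositol transporter gene Slc5a3 differed from PTU by -1.32 at 6 h and by -0.98 at 12 h, with 31.7 to 40.7 CPM with PTU and 12.0 to 21.1 CPM at 6 h. Neither gene overlapped the PTU mice at 6 h or 12 h. Prune2 differed by -2.13 at 6 h and by -1.26 at 12 h, but PTU mouse 5 had 80.1 CPM against 21.8 to 30.1 CPM in the other PTU mice, and the 12 h mice (7.91 to 28.4 CPM) overlapped them.

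The other 20 lower members differed from the PTU mice by -0.71 to -1.50 at 6 h and by -0.72 to -1.20 at 12 h. Tbc1d4, at the weak end, was the 1 member found on any gene list used here (insulin and PI3K signalling), with 105 to 127 CPM with PTU, 64.6 to 80.1 CPM at 6 h, 59.0 to 85.3 CPM at 12 h and 98.4 to 155 CPM at 24 h. Even these small differences of -0.71 and -0.72 left no overlap between the PTU mice and the 6 h or 12 h mice.

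Of the higher members, Adtrp (chr13:41763148-41847684, minus strand, ENSMUSG00000058022.14) led, with 198, 204, 153 and 184 CPM with PTU, 458, 315, 457 and 302 CPM at 6 h, 430, 303, 396 and 515 CPM at 12 h, and 177, 186, 228 and 232 CPM at 24 h. St3gal5 (chr6:72097592-72154571, plus strand) was at 42.1, 32.0, 34.0 and 40.0 CPM with PTU, at 109, 53.0, 82.4 and 80.1 CPM at 6 h, and at 81.7, 49.96, 58.2 and 87.8 CPM at 12 h. Both genes were above all PTU mice at 6 h and at 12 h. At 24 h St3gal5 was at 33.6, 28.5 and 31.9 CPM in mice 24, 26 and 28 and at 107 CPM in mouse 27, and without mouse 27 the rule is met by 58 genes in place of 40.

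Dhrs11 was at 43.0 to 52.5 CPM with PTU, 74.1 to 106 CPM at 6 h, 78.6 to 90.4 CPM at 12 h and 54.5 to 76.1 CPM at 24 h, so its 24 h mice all remained above the PTU mice. Slc7a8 had the largest difference at 6 h (1.47), but its mice ranged from 12.2 to 48.8 CPM at 6 h and from 9.98 to 39.1 CPM at 12 h against 8.01 to 12.7 CPM with PTU. This transporter gene overlapped the PTU range at both times. Zfp961 (0.81 and 0.78 at 6 h and 12 h), Cfap54 (0.83 and 0.75), Mir22hg (0.73 and 0.99), Slc35a4 (0.82 and 0.72) and Pcsk4 (1.10 and 0.94) were near the size limit or somewhat above it. Pcsk4 and Gm6157 were the 2 scarcest of the 10, with 4.18 to 8.04 CPM and 2.25 to 7.91 CPM with PTU, and had 8.64 to 17.0 CPM and 10.1 to 13.9 CPM at 6 h.

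**Figure D2:**
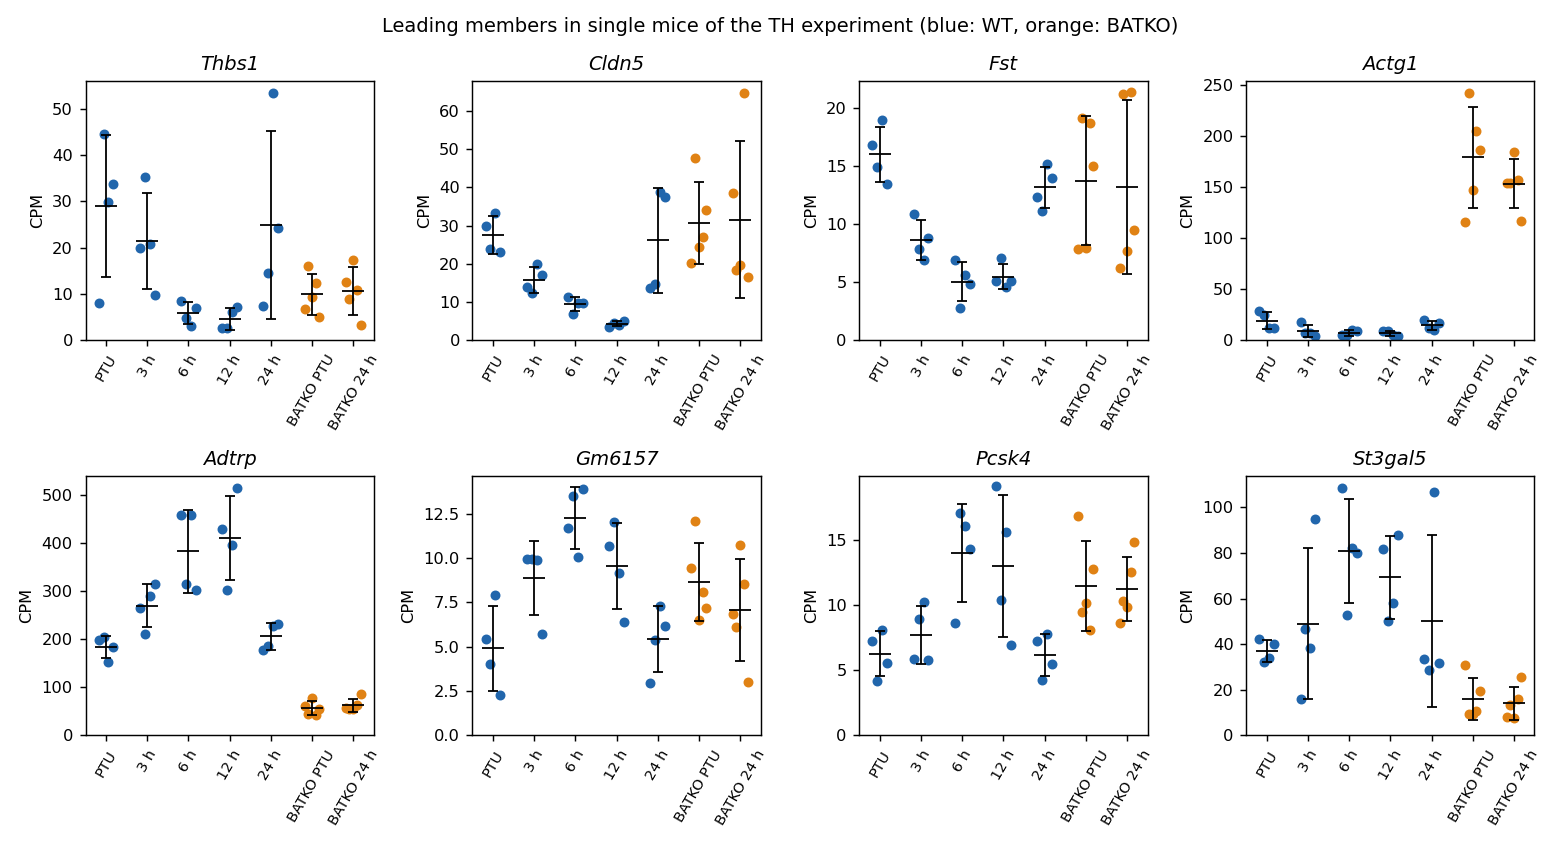
CPM of the 4 leading lower members (Thbs1, Cldn5, Fst, Actg1) and the 4 leading higher members (Adtrp, Gm6157, Pcsk4, St3gal5) in every mouse of the TH experiment, WT in blue and BATKO in orange, with the group mean ± SD. WT levels move away from the PTU group at 6 h and 12 h and return at 24 h, as for Adtrp (153 to 204, then 302 to 458, then 177 to 232 CPM).

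Counted over mice, 25 of 30 lower members lay below all PTU mice at 6 h, where 12.0% of the filtered genes did, and 9 of 10 higher members lay above all of them, where 17.9% did. At 12 h this held for 24 of 30 lower members (15.6% of the filtered genes) and 6 of 10 higher members (13.8%). At 24 h it held for 1 of 30 (14.5%) and 1 of 10 (17.5%). The rule used these contrasts, so the counts only describe how cleanly the single mice followed the group means.

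Just inside the size limit were Ralgps1 (-0.71 at 6 h) and Tbc1d4, and just outside it were Pir (-0.69 at 6 h, -1.50 at 12 h, 0.33 at 24 h) and Cpm (carboxypeptidase M: 1.06, 0.69, 0.33). Just inside the limit at 24 h were Slc35a4 (0.34) and Thbs1 (-0.34), and just outside it were Nap1l1 (-0.35) and Clpx (-0.36). Of the 40 members, 8 were kept whichever single mouse was left out, 18 were kept under all 3 other scalings tried, and 7 were kept under both. Glrx, Chd4, Cmpk2 and Tbc1d4, named because their values were seen, were kept under none of the 3 other scalings.

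Gm5182, Gm6157, Actg1, Fbxo22, Med12l and Mir22hg share sequence or exons with another gene, and their counts are uncertain to that extent. The pseudogene Gm5182 is covered over its whole length by Acaca (fatty acid synthesis), with an identity of 99.2% in the longest match, and Acaca itself differed from PTU by -0.86 at 6 h, -0.60 at 12 h and -0.14 at 24 h. Gm6157 is likewise covered by the vitamin transporter gene Slc5a6 (whole length, identity 97.79%), which differed by 1.18, 0.68 and -0.17. The Actg1 transcript is matched over 57.8% of its length by the pseudogene Gm12715, which differed from PTU by 0.46 at 6 h and -0.25 at 12 h. Fbxo22 overlaps exons of Nrg4 on the opposite strand over 15.4% of its exon length, and without a stated strand setting the reads there cannot be told apart. Nrg4 differed by 0.54 and 0.55, opposite in sign to Fbxo22. Med12l likewise overlaps Igsf10 over 15.3% of its exon length, and Igsf10 differed from PTU by -0.45 at 6 h and -0.48 at 12 h. Mir22hg shares 10.7% of its exon length with Tlcd2 on the same strand, which differed by 0.58 and 1.89.

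Several of the clock genes left out by the rule, Arntl, Npas2, Per2, Dbp and Ciart, differed from PTU by more than any member at both 6 h and 12 h. Dbp was 4.78 and 4.94 higher than with PTU at 6 h and 12 h and still 1.84 higher at 24 h. Its level was 0.80 to 11.8 CPM with PTU, 48.0 to 128 CPM at 6 h and 59.0 to 137 CPM at 12 h. Arntl differed by -3.07 and -3.09 and by 0.21 at 24 h, with 14.1 to 32.5 CPM with PTU, 1.87 to 5.28 CPM at 6 h and 1.24 to 12.0 CPM at 12 h. Npas2 (-3.60 and -3.70) and Clock (-0.68 and -0.99) had the sign of Arntl, and Per2 (3.06 and 4.34), Per3 (1.85 and 2.78), Ciart (3.31 and 3.47), Nr1d2 (2.02 and 2.08) and Per1 (0.57 and 0.67) had the other. Nr1d1 changed sign, from 1.38 at 6 h to -0.33 at 12 h. The part of the clock in the members' values was not tested, and with 1 PTU group it cannot be told apart from that of TH.

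**Figure D3:**
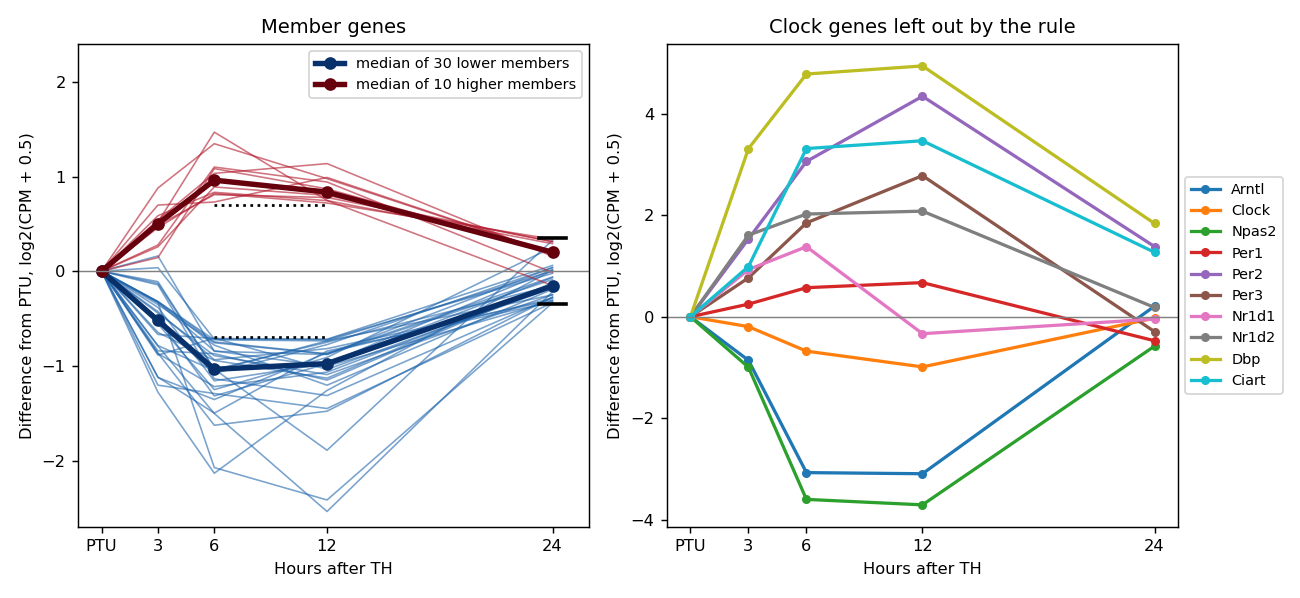
Mean difference from the PTU mice in log2(CPM + 0.5) against hours after TH, with 29 lower and 10 higher members as thin lines and the medians of all 30 and 10 as thick lines, the limits of the rule as dotted lines and bars, and the 10 clock genes left out of the rule on the right. Members stay within 0.35 of the PTU mice at 24 h by construction, while Dbp is at 1.84 and Per2 at 1.38 there.

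Members are 0.434% of the filtered genes, and 7.1% of the filtered genes passed the size limit at 6 h and 12 h. Of 16 further clock and clock output genes that passed the count filter, 6 passed the size limit at 6 h and 12 h and 0 were members. For known TH target genes this was 5 of 8 with 0 members, and their median difference was still 1.09 at 24 h. The counts past the size limit were 4 of 13 for glucocorticoid-responsive genes, 5 of 22 for feeding and fasting genes, 2 of 13 for temperature and heat shock genes, 8 of 17 for immediate early genes, 2 of 14 for stress response genes, 6 of 14 for thermogenic and adrenergic genes, 0 of 14 for ribosome biogenesis genes, 3 of 15 for cholesterol synthesis genes and 1 of 7 for interferon-stimulated genes, each with 0 members. Insulin and PI3K signalling had 6 of 18 past the limit and the 1 member Tbc1d4, and 0 of 22 cell cycle genes passed the count filter.

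At 3 h the early part of the response could be tested in mice whose differences the rule did not use, though they entered its count filter and were set against the same PTU mice. By the quasi-likelihood test of edgeR, adjusted after Benjamini and Hochberg, 1195 of 13003 genes tested (9.19%) differed from PTU at an adjusted p under 0.05. Of the lower members 11 of 30 were already lower at 3 h, where 4.09% of all genes tested were, and of the higher members 3 of 10 were higher, where 5.1% were. At 3 h, 16 of 30 lower members lay below all PTU mice (7.74% of the filtered genes) and 5 of 10 higher members above all of them (9.99%). No member was called in the direction opposite to its later change. Because the PTU mice are shared with the rule, these shares are not independent of the choice of members. Of the cell type markers, 2 of 5 erythroid (median 1.36), 1 of 7 myeloid (0.35) and 2 of 11 brown adipocyte markers (0.03) were higher at 3 h. For white adipocytes 1 of 5 was lower (-0.22). The median was -1.95 for muscle (0 of 12 called), 0.27 for endothelial (0 of 7) and -0.11 for nerve markers (0 of 6). The part of these markers in the 3 h values of the members was not tested.

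Ncoa7 (-1.13 ± 0.20, adjusted p = 0.000798) fell from 76.8 to 93.5 CPM with PTU to 32.4 to 42.3 CPM at 3 h, with no overlap. Ralgps1 (-0.92 ± 0.18, adjusted p = 0.00199) and Med12l (-0.90 ± 0.18, adjusted p = 0.00236) fell too. The 3 h mice of Ncoa7 overlapped its 6 h mice, of which the highest had 39.2 CPM.

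Of the higher members, Mir22hg rose by 0.69 ± 0.16 (adjusted p = 0.00868), from 20.2, 24.9, 21.1 and 28.2 CPM with PTU to 42.1, 35.5, 37.4 and 38.4 CPM at 3 h. Slc35a4 rose by 0.45 ± 0.11 (adjusted p = 0.0144) and Adtrp by 0.54 ± 0.16 (adjusted p = 0.0425). The call of Adtrp was lost in 7 of the 8 fits that left out a mouse (adjusted p up to 0.128), and that of Slc35a4 in 1, without PTU mouse 3 (0.0529). Their 3 h mice, at 89.9 to 102 CPM and 211 to 315 CPM, were above every PTU mouse (64.6 to 75.8 CPM and 153 to 204 CPM). Thbs1, the leading lower member, was at 9.82 to 35.2 CPM at 3 h and did not pass the test (-0.46 ± 0.49, adjusted p = 0.593). Leaving out each mouse in turn gave 10 to 15 members called, and without PTU mouse 3 the count over all genes was 684 in place of 1195. Of the 10 clock genes left out, Per2 (1.53), Nr1d2 (1.49) and Dbp (3.16) rose at 3 h.

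In BATKO mice 24 h after TH, edgeR's test found 0 of 14854 genes (0.0%) at an adjusted p under 0.05 and 674 at an unadjusted p under 0.05, DESeq2 also found 0, and the lowest adjusted p was 0.944. For the members the log2 fold changes lay between -0.51 and 0.62, with a median of -0.08 for the lower and 0.05 for the higher members, and 1 of 40 had an unadjusted p under 0.05. BATKO mice were taken at 24 h only, when the members were near the PTU level in WT mice by the rule, so these values hold no measurement at 6 h or 12 h.

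Levels in BATKO and WT mice on PTU are set side by side without a test, as their libraries also differed in depth (13593987 to 18073627 counts in BATKO mice) and the median of the filtered genes was 0.45 lower in BATKO mice. Arntl was at 1.36 to 6.62 CPM and Dbp at 79.2 to 130 CPM in the BATKO PTU mice, outside the ranges of the WT PTU mice (14.1 to 32.5 and 0.80 to 11.8 CPM) and overlapping those of the WT mice at 6 h and 12 h. The differences from the WT PTU mice were -3.15 and 4.94. Of the lower members 18 of 30 were lower in BATKO PTU mice by 0.7 or more, where 38.5% of the filtered genes were, and of the higher members 2 of 10 were higher by that much, where 10.1% were, while 5 of 10 were lower. The WT PTU mice in this difference are those whose values chose the members, so nothing is read from these counts.

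Levels of single members are given as values only, since the WT mice beside them chose the members and the median gene was lower in BATKO mice. Med12l (5.80 to 12.9 CPM) and Ncoa7 (13.5 to 23.1 CPM) did not exceed the highest WT mouse at 6 h (15.5 and 39.2 CPM) in any BATKO PTU mouse. Cldn5 was at 20.3 to 47.8 CPM, overlapping the range of the WT PTU mice (23.2 to 33.2 CPM). Adtrp was at 43.2 to 77.8 CPM, below all WT mice. Actg1 was at 115 to 242 CPM, against 3.57 to 28.7 CPM over the WT time course. In the other experiments its BATKO and CTRL ranges overlapped. They were 18.9 to 52.6 and 13.0 to 74.3 CPM at 30 °C, 5.95 to 14.7 and 6.76 to 12.3 CPM at 4 °C, and 10.7 to 12.4 and 9.50 to 19.0 CPM with chow. The part of clock phase, genotype and library in these values was not tested.

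The temperature experiment used other mice and shares no library with the rule. In CTRL mice 6514 of 13267 genes tested (49.1%) differed between 4 °C and 30 °C by edgeR's test, and 30 of the 40 members did. Of the lower members 19 of 30 were lower at 4 °C, where 22.6% of all genes were, 3 were higher and 8 did not pass. Of the higher members 6 of 10 were higher at 4 °C, where 26.5% of all genes were, 2 were lower and 2 did not pass. The median log2 fold change was -0.70 for the lower members, 1.08 for the higher members and -0.01 for all genes tested. The members had passed a higher count limit than the genes tested here. These tests scale libraries by TMM, while the rule and the levels given use CPM on plain totals, and in the cold the scales differ: on the CPM scale, an alternative chosen after the data were seen, the median of all genes was -0.51 in CTRL and -0.32 in BATKO mice. On it 20 of 30 lower members were lower in CTRL mice, where 45.3% of all genes were, and 5 of 10 higher members were higher, where 13.2% were. Without the 3 libraries rich in muscle RNA, an alternative chosen after the data were seen, 29 members were called, with 18 lower members lower and 6 higher members higher.

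Med12l had the lowest adjusted p of the lower members (2.18e-06), with 29.5, 16.7, 20.9 and 17.0 CPM at 30 °C and 2.09, 2.12 and 2.43 CPM at 4 °C, a log2 fold change of -2.73 ± 0.30. Ptpn14 (-1.75 ± 0.22, adjusted p = 9.59e-06) was at 38.7 to 71.1 CPM at 30 °C and at 14.1, 7.53 and 11.5 CPM at 4 °C. Ntrk3 (-3.09 ± 0.48, adjusted p = 6.49e-05) fell from 550 to 698 CPM to 102, 14.5 and 36.3 CPM. In each of these genes the 4 °C mice were far below the lowest 30 °C mouse.

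Of the higher members, Dhrs11 was at 42.0, 52.0, 40.7 and 48.6 CPM at 30 °C and at 139, 157 and 115 CPM at 4 °C (2.07 ± 0.19, adjusted p = 4.44e-07). Adtrp was at 109, 65.7, 62.4 and 78.4 CPM at 30 °C and at 154, 387 and 264 CPM at 4 °C (2.26 ± 0.26, adjusted p = 3.53e-06). St3gal5 was at 1.33 to 12.6 CPM at 30 °C and at 50.8 to 122 CPM at 4 °C (4.01 ± 0.54, adjusted p = 1.79e-05). These 3 genes of lipid and steroid metabolism rose in the cold as after TH, as did Zfp961 (1.29 ± 0.19, adjusted p = 3.97e-05), Slc35a4 (1.21) and Pcsk4 (0.95), though on the CPM scale Pcsk4 was at 0.44 and not called (adjusted p = 0.211).

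Some members moved in the cold of CTRL mice against their direction after TH, and are named after their values were seen. Marc1 (2.25) and Nqo1 (0.98), both reductases, and Glrx (2.11), a glutathione-dependent redox enzyme, were lower at 6 h and 12 h and higher at 4 °C. Glrx was at 32.0, 88.2 and 73.6 CPM at 4 °C and at 15.9 to 27.7 CPM at 30 °C (adjusted p = 9.22e-06). Gm6157 (-1.26) and Cfap54 (-0.88) were higher at 6 h and 12 h and lower at 4 °C. The calls of Nqo1 and Cfap54 were lost in 4 and 2 of the 7 fits that left out a mouse (adjusted p up to 0.119 and 0.0794), and that of Pcsk4 in 1, without 4 °C mouse 2 (0.1). Nqo1 was at 0.48 on the CPM scale and was not called there (adjusted p = 0.245).

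In BATKO mice 5340 of 13267 genes (40.3%) differed between 4 °C and 30 °C, and 25 members did. Of the lower members 14 of 30 were lower at 4 °C (18.9% of all genes) and 5 were higher, and of the higher members 5 of 10 were higher (21.4%) and 1 was lower. Ptpn14 had the lowest adjusted p of the lower members that fell (-1.30 ± 0.19, adjusted p = 6.07e-05), with 45.4 to 59.5 CPM at 30 °C and 14.9 to 19.9 CPM at 4 °C. Apold1 (-2.16, adjusted p = 0.000425) was at 54.1 to 235 CPM at 30 °C and at 12.3 to 43.8 CPM at 4 °C, and Cldn5 (-2.02, adjusted p = 0.000804) at 39.9 to 175 and 11.7 to 36.2 CPM. Gm15551 fell by 1.79 (adjusted p = 0.000974). Without the muscle-rich libraries 23 members were called. On the CPM scale 29 were (47.0% of all genes), with 19 of 30 lower members lower (35.7% of all genes) and 5 of 10 higher members higher (11.3%).

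Marc1 (3.35 ± 0.34, adjusted p = 2.29e-06) and Glrx (2.07 ± 0.24, adjusted p = 6.63e-06) rose in the cold in BATKO mice too, with Ralgps1 (0.78), Gm5182 (1.54) and Nqo1 (0.79). The call of Nqo1 was lost in 7 of the 9 fits that left out a mouse (adjusted p up to 0.193), with the size factors of DESeq2 and with no count filter, and that of Gm5182 without 4 °C mouse 8 (0.0582) and without the 3 muscle-rich libraries (0.0679). On the CPM scale neither Nqo1 (adjusted p = 0.201) nor Ralgps1 (0.0765) was called. Marc1 was at 3.29 to 5.81 CPM at 30 °C and at 24.2 to 49.9 CPM at 4 °C. Adtrp (2.06 ± 0.23, adjusted p = 5.28e-06), Dhrs11 (1.21 ± 0.17, adjusted p = 3.54e-05), St3gal5 (3.19 ± 0.47, adjusted p = 6.42e-05), Zfp961 (1.13 ± 0.17, adjusted p = 6.46e-05) and Slc35a4 (0.90) were the higher members that rose. Over both genotypes, 23 members were called with the same sign in each, 7 were called in CTRL mice alone, 2 in BATKO mice alone and 8 in neither. These 23 hold 14 lower members that fell, where 13.6% of all genes fell in both genotypes, and 5 higher members that rose, where 17.4% rose in both. On the CPM scale the counts were 17, where 30.2% of all genes fell in both, and 5, where 8.37% rose in both.

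Markers of other cells moved with temperature as well. Of the erythroid markers 3 of 5 rose at 4 °C in each genotype (median 2.41 in CTRL and 1.67 in BATKO mice), and of the white adipocyte markers 3 of 5 fell (median -1.64 and -1.60). Schwann and nerve markers summed to 223 to 369 CPM at 4 °C and 644 to 671 CPM at 30 °C in CTRL mice, and to 349 to 431 and 560 to 801 CPM in BATKO mice. On the TMM scale 1 of 6 fell in each genotype and 1 rose in CTRL mice, while with CPM scaling 5 and 2 fell. Myeloid markers summed to 73.2 to 102 and 133 to 253 CPM in CTRL mice, and to 88.9 to 157 and 120 to 141 CPM in BATKO mice. The part of all these markers in the members' values was not tested. Endothelial markers summed to 925 to 1070 CPM at 4 °C and 1070 to 1500 CPM at 30 °C in CTRL mice, and to 834 to 1200 and 1300 to 1690 CPM in BATKO mice, with 7 of 7 detected, of which 2 rose and 1 fell in CTRL mice and 1 rose and 2 fell in BATKO mice. These sums are on the CPM scale and the calls on the TMM scale, and with CPM scaling 4 fell in each genotype. On the TMM scale the log2 fold changes of Cldn5 (-1.86 and -2.02) and Apold1 (-2.78 and -2.16) stand beside a median over the 7 markers of 0.02 in CTRL and -0.31 in BATKO mice, which was -0.48 and -0.60 on the CPM scale. Of the 11 brown adipocyte markers 10 rose and 1 fell at 4 °C in CTRL mice, and 8 rose and 1 fell with CPM scaling.

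**Figure D4:**
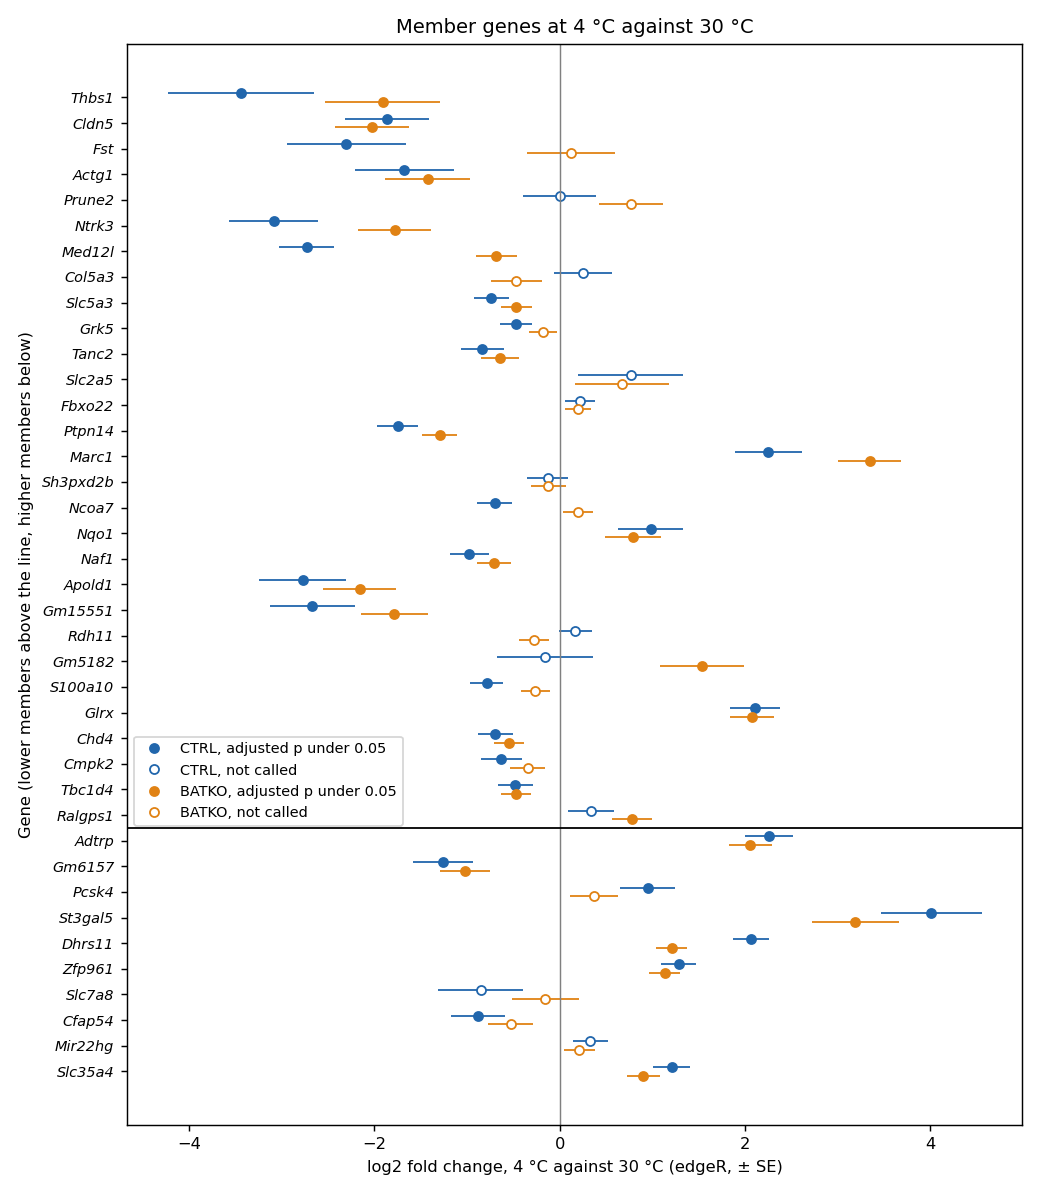
Log2 fold change between 4 °C and 30 °C on the TMM scale with its SE for 39 members, CTRL in blue and BATKO in orange, with filled points at an adjusted p under 0.05. Most lower members lie left of 0 and most higher members right of it in both genotypes, with Marc1 (2.25 and 3.35) and Glrx (2.11 and 2.07) as the farthest exceptions among the lower members.

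Most of the clock genes left out by the rule moved in the cold against their direction after TH. Of the 8 left-out clock genes that were tested and had 1 sign at 6 h and 12 h, 0 had that sign at 4 °C in either genotype, and 7 in CTRL and 5 in BATKO mice were called in the opposite direction. Arntl rose by 3.07 ± 0.42 in CTRL mice (adjusted p = 1.81e-05), from 1.00 to 4.18 CPM at 30 °C to 8.35 to 16.0 CPM at 4 °C. Dbp fell by 2.41 in CTRL mice (adjusted p = 1.5e-05), from 196 to 326 CPM to 17.6 to 47.8 CPM. Among the members, 22 of 30 lower and 7 of 10 higher had the same sign in the cold in CTRL mice as at 6 h and 12 h, and 20 of 30 and 7 of 10 had it in BATKO mice, whether or not they passed the test. Of all genes tested, 50.7% were below 0 and 49.3% above 0 in CTRL mice, and 51.4% and 48.6% in BATKO mice. On the CPM scale, which gave the signs at 6 h and 12 h, the members with the same sign were 26 of 30 and 6 of 10 in CTRL mice and 23 of 30 and 6 of 10 in BATKO mice, where 71.9% and 69.3% of all genes were below 0. The labels give no clock time for the temperature groups either.

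The difference between the genotypes in the response to temperature was tested as a temperature by genotype interaction, which 149 of 13267 genes passed (1.12%; 0.317% with a positive and 0.807% with a negative difference, BATKO minus CTRL), and 1 member did. The count over all genes was 5 without CTRL 4 °C mouse 1 and 907 without CTRL 4 °C mouse 5, 10 without the muscle-rich libraries and 686 by DESeq2, and on the CPM scale 0.648% of the genes were positive and 0.309% negative, so these shares are no firm background. Med12l fell less in BATKO mice, from 10.6 to 21.8 CPM at 30 °C to 6.29 to 11.0 CPM at 4 °C, and the log2 fold changes differed by 2.05 ± 0.37 (adjusted p = 0.022). The call was lost without CTRL 4 °C mouse 1 or 2 or CTRL 30 °C mouse 21, and without the 3 muscle-rich libraries (adjusted p = 0.0798), while the size stayed between 1.89 and 2.25 in all fits. For Ncoa7 (0.90 ± 0.25, adjusted p = 0.0828), Dhrs11 (-0.86 ± 0.25, adjusted p = 0.0888) and Fst (2.42 ± 0.80, adjusted p = 0.117) the difference did not pass the test.

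In the diet experiment 509 of 12932 genes (3.94%) differed between HFD and chow in CTRL mice, and 11 of the 40 members did. The count over all genes was 166 without chow mouse 2, 716 without chow mouse 3, 321 with only the groups compared and 1280 without a count limit, and the shares of all genes vary with it. Of the lower members 4 of 30 were lower with HFD (2.04% of all genes) and 5 were higher, and of the higher members 1 of 10 was higher (1.89%) and 1 was lower. The members thus did not share 1 direction here.

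Apold1 fell most clearly, from 287, 451, 246 and 306 CPM with chow to 82.0, 64.2, 80.4 and 51.9 CPM with HFD (-2.19 ± 0.20, adjusted p = 0.000109). The fructose transporter gene Slc2a5 was at 20.3, 21.9, 15.7 and 6.90 CPM with chow and at 2.97, 1.82, 0.655 and 0.488 CPM with HFD (-3.41 ± 0.45, adjusted p = 0.00125). Actg1 (-1.52, adjusted p = 0.011) and Gm5182 (-1.34, adjusted p = 0.0246) fell as well. Endothelial markers summed to 1110 to 1240 CPM with chow and 817 to 1220 CPM with HFD, and 0 of 7 passed the test.

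Glrx rose from 21.3 to 34.1 CPM with chow to 37.8 to 68.8 CPM with HFD (0.82 ± 0.17, adjusted p = 0.0177). S100a10 was at 398, 388, 405 and 401 CPM with chow and at 537, 597, 647 and 503 CPM with HFD (0.55 ± 0.11, adjusted p = 0.0181). Col5a3 (0.97, adjusted p = 0.0242), Cmpk2 (1.15, adjusted p = 0.0399) and Sh3pxd2b (0.78, adjusted p = 0.0466) also rose. Adtrp rose by 0.61 ± 0.15 (adjusted p = 0.04), from 61.9 to 92.9 CPM to 102 to 123 CPM, and Mir22hg fell by 0.56 (adjusted p = 0.0489). Leaving out each mouse in turn gave 4 to 11 members called, with 4 without chow mouse 2, 6 without chow mouse 4, and 7 without HFD mouse 10 or 11. Of these 8 fits, Cmpk2 lost its call in 7 (adjusted p up to 0.124), Sh3pxd2b in 6 (0.108), Mir22hg in 6 (0.145), Adtrp in 5 (0.126), Gm5182 in 3 (0.0824), Col5a3 in 2 (0.075) and S100a10 in 1, without chow mouse 2 (0.0612). With only the chow and HFD mice of CTRL genotype in the fit, Sh3pxd2b (adjusted p = 0.0973), Mir22hg (0.0809) and Glrx (0.0519) also missed the threshold.

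Across the 3 h, CTRL cold, BATKO cold and HFD comparisons, 2 members were called in 4, 10 in 3, 18 in 2, 6 in 1 and 4 in none. Of the 12118 genes tested in all 4, 0.338% were called in 4, 5.01% in 3, 30.5% in 2, 27.6% in 1 and 36.6% in none. The PTU mice of the 3 h comparison also served to choose the members. Glrx and Adtrp, named after their values were seen, were the 2 called each time. Adtrp was higher in all 4, as at 6 h and 12 h, though its calls at 3 h and with HFD were lost in most fits that left out a mouse. Glrx was lower at 3 h, as at 6 h and 12 h, and higher in the cold and with HFD, where its call was lost without chow mouse 4 (adjusted p = 0.0525). Prune2, Fbxo22, Rdh11 and Slc7a8 were called in none of the 4.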

How the data were processed

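BAT RNA was sequenced from 59 male mice in 3 experiments. The authors aligned reads to mm10 (GRCm38) with Bowtie (Bowtie2 2.3.2.2 per the labels), removed low-quality alignments and ran htseqcount. The deposited values are raw counts per gene. The annotation and strand setting of the counting are not given in the sources used here. Libraries had been made from Trizol RNA with a SENSE total RNA kit. Columns were matched to mice by the labels.

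CPM were computed on totals without mitochondrial genes. Total counts were 7805938 to 14615534 (TH, WT), 13593987 to 18073627 (TH, BATKO), 8008348 to 12887313 (temperature) and 7612059 to 11533900 (diet) per mouse, and precision is limited by these and by 2 to 5 mice a group. For the 91 pairs of mice within groups, the ratio of chi-square to degrees of freedom was 7.47 or more, so no library was a copy of another in its group.

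Tests used edgeR (version 4.0.16) in R (version 4.3.3), with limma (version 3.58.1): TMM scaling, a filter that kept genes averaging above 10 normalized counts, quasi-likelihood tests between group means (WT mice of the TH experiment, BATKO mice of the TH experiment, temperature mice and diet mice in 1 fit each), Benjamini-Hochberg adjustment over all genes tested, and a threshold of 0.05. The procedure was checked on simulated data. Alternatives were DESeq2 (version 1.42.0), its size factors, CPM scaling without TMM, other count limits, only the groups compared, and leaving out each mouse. For the members they were other scalings, pseudocounts, count and size limits, and group medians. BATKO and WT mice were not tested against each other, and BATKO diet mice entered only the shared fit. Positions come from GENCODE vM21, promoter windows from RefSeq, and shared transcript sequence from blastn. Figures were drawn with Python (version 3.11.15).

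The members and gene lists were chosen with earlier results of these data known. Genes named with values were, in each direction, the 10 members with the largest smaller change of 6 h and 12 h, members on a list, up to 4 members a direction with the lowest adjusted p in each comparison, the genes nearest the limits, and the clock genes. The counts and medians cover all 40 members, of which 1 is not reported here by name and is not drawn in the figures.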

Additional observations from a re-analysis of the deposited data

Results flagged for a closer look

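Dixon's criterion at 95% was applied to the members named by rule in each experiment (23 in the TH, 11 in the temperature and 8 in the diet experiment), each in every group of 4 or 5 mice used there. Of 210 such groups, 17 had 1 mouse far from the others, where chance gives about 1 in 20, or 10.5. Several fell in the same mice. The remaining members were not examined in this way. In the TH experiment, BATKO mouse 8 at 24 h was high for Dhrs11 (30.7 CPM, others 15.9 to 19.2), Zfp961 (27.2 CPM, others 14.6 to 18.02) and Slc7a8 (37.0 CPM, others 4.86 to 7.72). WT mouse 27 at 24 h was high for St3gal5 (107 CPM, others 28.5 to 33.6) and Slc7a8 (18.5 CPM, others 6.05 to 7.86).

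Prune2 was high in PTU mouse 5 (80.1 CPM, others 21.8 to 30.1) and in 6 h mouse 13 (13.3 CPM, others 5.58 to 6.40). Zfp961 was high in 3 h mouse 7 (66.8 CPM, others 42.0 to 44.5) and 24 h mouse 24 (62.7 CPM, others 36.2 to 39.6). Slc5a3 was high in 6 h mouse 12 (21.1 CPM, others 12.0 to 13.3), and Slc7a8 in 12 h mouse 23 (39.1 CPM, others 9.98 to 14.8). Gm6157 was low in 3 h mouse 11 (5.74 CPM, others 9.90 to 9.95), the mouse with the highest summed levels of erythroid (2530 CPM) and myeloid markers (335 CPM) in the TH experiment. Cfap54 was high in PTU mouse 4 (8.30 CPM, others 6.35 to 6.57) and low in 12 h mouse 19 (7.81 CPM, others 13.1 to 14.0). Slc35a4 was low in BATKO PTU mouse 11 (54.0 CPM, others 74.3 to 81.1). With chow, CTRL mouse 1 was high for Cmpk2 (34.3 CPM, others 17.1 to 19.1) and CTRL mouse 3 low for Actg1 (9.50 CPM, others 18.3 to 19.0).

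Med12l was the 1 member whose response to temperature differed between BATKO and CTRL mice by the interaction test, by 2.05 on the log2 scale. The call was lost in 3 of the 16 fits that left out a mouse and without the 3 muscle-rich libraries, where 0 members were called, and DESeq2 called 4 members.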

How the results depend on the processing

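The 40 members became 38 with mitochondrial counts in the total (22 shared), 37 with TMM (33 shared), 38 with DESeq2 size factors (34 shared), 35 with a pseudocount of 2 CPM (32 shared) and 48 with group medians (30 shared). They became 105 without a count limit, 15 with a mean count of 200 or more, and 9 with a size limit of 1, the smaller sets being contained in the 40 by construction. Counting mitochondrial reads moved the median of all genes by 0.14 at 6 h and 0.16 at 24 h. Leaving out 1 mouse gave 35 to 58 members, with 58 without 24 h mouse 27. No alternative turned a called direction. Leaving out 1 mouse gave, over all genes and over members, 684 to 1311 and 10 to 15 calls at 3 h (8 to 12 lower members lower, 1 to 4 higher members higher), 0 to 0 and 0 to 0 in BATKO mice after TH, 5395 to 6346 and 25 to 28 in CTRL cold (15 to 18 and 5 to 6), 4346 to 5099 and 19 to 24 in BATKO cold (10 to 14 and 5 to 5), 5 to 907 and 0 to 3 for the interaction, and 166 to 716 and 4 to 11 for HFD. The temperature by genotype interaction gave 686 genes and 4 members by DESeq2 and 10 genes and 0 members without the muscle-rich libraries. HFD gave 872 genes by DESeq2, 1280 without a count limit and 321 with only the groups compared. At 3 h, Adtrp and Chd4 were lost in 7 and Marc1 in 6 of the 8 fits that left out a mouse. With CPM scaling in place of TMM, chosen after the data were seen, higher calls were 22.6% of all calls in CTRL cold (53.9% with TMM), 24.1% in BATKO cold (53.1%) and 67.7% for the interaction (28.2%), and Chd4 at 3 h and Sh3pxd2b with HFD were no longer called. The cause of these shifts was not tested. No paired analysis was possible because the groups compared within a genotype share no mouse number. Groups of 2 to 5 mice and 1 PTU group limit all of these comparisons, and members near a limit depend on the scaling.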
